A study of Rattus norvegicus with 192 samples.

Results

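GABA-A receptors are chloride channels opened by the inhibitory transmitter GABA. The genes described here encode 7 of their subunits. They were taken by symbol from the deposited table of the nucleus accumbens core, and all 7 were found among its 38354 genes: Gabra2, Gabra3, Gabra4 and Gabra5 for alpha subunits, Gabrb1 and Gabrb2 for beta subunits, and Gabrd for the delta subunit. Levels are in CPM, counts scaled to 1000000 per library. All 7 averaged at least 1 CPM and were among the 15427 genes tested. Polyadenylated RNA was sequenced from outbred laboratory rats, and of the 192 libraries in the labels 33, noted as removed, were not used here. Neither a treatment nor sex, age, date or batch is in the labels, so groups follow the form of the rat identifier. There were 12 libraries whose identifier had been changed, after a genotype mismatch, to one beginning with E21 (corrected E21), 77 with an original identifier beginning with E21 (E21), 67 with an identifier of digits alone (numeric), 2 beginning with AA1 and 1 changed to another form. Each library was taken as 1 rat, and the replicate spread is thus between rats, with any technical spread in it. At the depth of these libraries, 1 CPM stood for 14.6 to 61.2 expected counts.

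Each receptor is built from several subunits around a central pore, usually alpha and beta subunits together with a gamma or delta subunit. The alpha subunit sets where on the cell the receptor sits and which drugs bind it: receptors with alpha2 or alpha3 are found mostly at synapses, while alpha4 together with delta, and alpha5, form receptors outside the synapse that respond to ambient GABA and carry tonic inhibition. Most neurons of the accumbens core are medium spiny neurons, which release GABA and also receive it, and in rodents they are rich in alpha2, alpha4, beta and delta subunits.

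The labelled tissue was checked against marker genes. Of all libraries analysed, 147 had Drd1, the dopamine D1 receptor of medium spiny neurons, at 100 CPM or more. Another 11 had Th, the enzyme of dopamine synthesis in midbrain neurons, at 100 CPM or more, and 1 had neither. No library had both. In the 11 libraries with high Th, the summed level of 12 medium spiny neuron markers was 426 to 651 CPM, against 5591 to 11759 CPM in the 147 libraries with high Drd1. A list of 6 midbrain dopamine markers summed to 1552 to 4752 CPM with high Th, against 15.8 to 40.8 CPM with high Drd1. Of the 11 libraries, 10 have a numeric label and 1 has an E21 label. The last library, numeric, had 1993 CPM of Slc17a7, which loads glutamate into vesicles of cortical neurons, and 20.0 CPM of Drd1. These 12 libraries go against their tissue label, so the label comparisons of the subunits are given with and without them. Other GABA genes are compared between labels with high Drd1 only. Correlations were computed with high Drd1, and those of subunit pairs also with high Th. In RNA from whole tissue, fewer cells of a type and less RNA per cell cannot be told apart.

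The extrasynaptic pair Gabra4 and Gabrd, together with Gabra2 and Gabra5, separated the profiles completely, whereas Gabra3 and both beta subunits did not. Because the libraries were divided by measured Th and Drd1, these levels are a description with no test. Gabrd, the delta subunit, had a lowest, median and highest level of 1.44, 4.73 and 8.30 CPM in the 11 libraries with high Th. In the 147 libraries with high Drd1, the levels of Gabrd were 51.8, 81.6 and 116 CPM. The ranges were far apart, and the median with high Drd1 was 17.3 times that with high Th. Gabra4, which encodes the alpha subunit that pairs with delta, had 24.9, 43.5 and 52.3 CPM with high Th, against 125, 243 and 336 CPM with high Drd1. Its medians differed 5.58-fold, again with no overlap. For Gabra2, the alpha2 subunit of many synaptic receptors, the levels were 43.5, 70.3 and 91.2 CPM with high Th, against 140, 215 and 288 CPM with high Drd1. Gabra5, the alpha5 subunit, stood at 12.7, 18.1 and 25.5 CPM with high Th, against 43.1, 55.9 and 85.3 CPM with high Drd1. The medians differed 3.06-fold for Gabra2 and 3.09-fold for Gabra5, and neither gene's ranges overlapped.

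The other 3 subunits had overlapping ranges. Gabra3, the alpha3 subunit, had 56.5, 70.3 and 83.1 CPM with high Th, against 50.2, 74.4 and 107 CPM with high Drd1. Gabrb1, the beta1 subunit, had 14.1, 16.7 and 19.4 CPM with high Th, against 5.53, 19.2 and 33.7 CPM with high Drd1, so every library with high Th lay inside the range of the others. Gabrb2, the beta2 subunit, had 79.9, 125 and 217 CPM with high Th, against 80.5, 171 and 284 CPM with high Drd1. In all, 4 of 7 subunits lay wholly lower with high Th and 0 wholly higher. Among all tested genes, 6.57% lay wholly lower and 6.00% wholly higher. The library with neither marker had 209 CPM of Gabra2, within the range seen with high Drd1, but 146 CPM of Gabra3 and 99.3 CPM of Gabra5, above every other library. Its Gabrd, at 51.3 CPM, lay just under the lowest library with high Drd1.

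**Figure D1:**
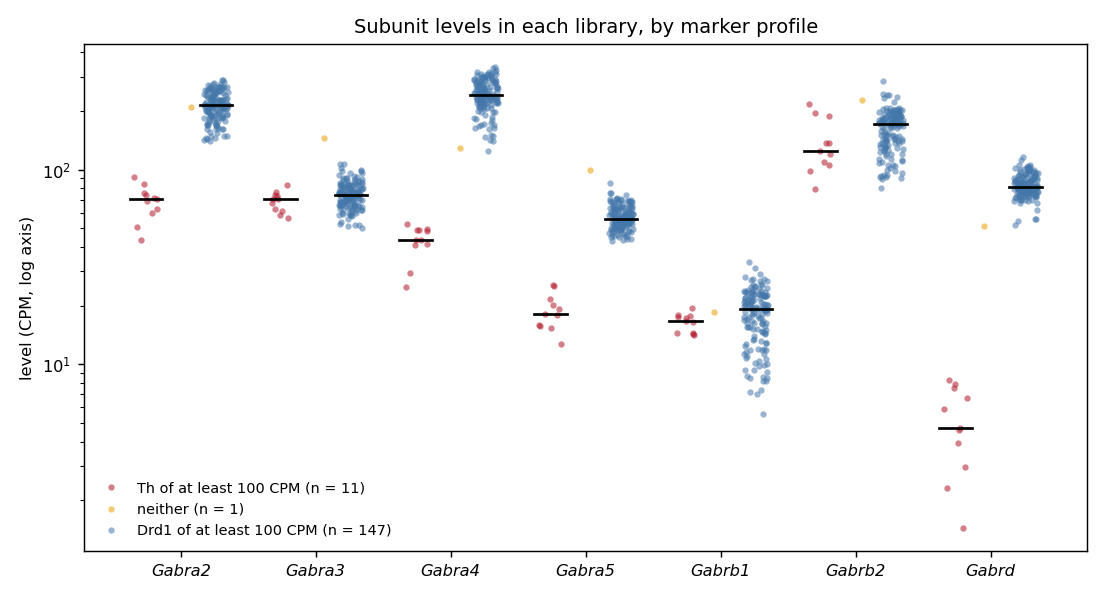
Level of each subunit in every library, in CPM on a log axis, for the 11 libraries with Th of at least 100 CPM, the 1 with neither marker and the 147 with Drd1 of at least 100 CPM. Points are libraries and black bars are medians. Gabra2, Gabra4, Gabra5 and Gabrd lie wholly lower with high Th, while Gabra3, Gabrb1 and Gabrb2 overlap.

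Of 47 other genes of the GABA system in 7 lists, 41 were tested. Of these, 4 lay wholly lower and 3 wholly higher with high Th. Among all tested genes, 6.57% lay wholly lower and 6% wholly higher. The 5 named here were chosen after their values were seen. Among those lower were Gphn, the scaffold gephyrin, with a median of 51.7 CPM with high Th against 96.5 CPM with high Drd1, and Shisa7, an auxiliary receptor protein, with 27.7 against 183 CPM. Higher were Iqsec3, a gephyrin-binding exchange factor, with 273 against 93.4 CPM, Slc6a11, the GABA transporter GAT3 of astrocytes, with 145 against 33.7 CPM, and Dbi, a peptide that binds the benzodiazepine site, with 248 against 94.5 CPM. Levels are compared within a gene only, since no transcript lengths were used.

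The promoters of the pair with the widest difference between the profiles are shown because both are rich in CpG and hold the GC box, the letters GGGCGG on either strand. RefSeq promoter windows of the rat assembly GRCr8 were found for 6 of the 7 genes, all but Gabra2. The first sequence covers chr14:36944497-36944746 on the plus strand, up to the annotated start of Gabra4, and the second chr5:171252710-171252959 on the minus strand, up to that of Gabrd. Both are written 5′ to 3′ in the direction of the gene, as the 250 bases before its start, with each GC box in capitals.
Gabra4: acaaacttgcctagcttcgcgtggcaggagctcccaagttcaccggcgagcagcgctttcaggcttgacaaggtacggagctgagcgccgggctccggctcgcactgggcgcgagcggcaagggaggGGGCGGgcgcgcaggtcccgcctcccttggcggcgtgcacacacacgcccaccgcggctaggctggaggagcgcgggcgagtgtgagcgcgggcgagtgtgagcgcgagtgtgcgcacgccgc
Gabrd: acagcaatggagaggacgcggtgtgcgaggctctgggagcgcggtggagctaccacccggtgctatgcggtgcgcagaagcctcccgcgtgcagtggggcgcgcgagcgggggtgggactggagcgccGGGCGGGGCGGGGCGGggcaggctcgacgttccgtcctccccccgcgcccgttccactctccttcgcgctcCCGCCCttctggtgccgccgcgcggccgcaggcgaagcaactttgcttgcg
The Gabra4 window was 71.6% G and C with 33 CpG and 1 GC box, starting 123 bases before the gene. The Gabrd window was 74% G and C with 35 CpG and 4 GC boxes, of which those in the first run overlap by 1 base each. The Gabra5 window had 1 GC box, 76.4% G and C and 37 CpG. At the other end was Gabra3, with no GC box, 0 CpG and 40.4% G and C. A GC box was found in 30.5% of all 33469 RefSeq windows over the same 250 bases, and a match is a description of letters, not a site. The TATA box letters TATAAA occurred in 12.9% of windows and, among the 6, in that of Gabra3 alone. The cyclic AMP response element TGACGTCA was found in 1.59% of windows and in none of the 6.

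Among the 147 libraries with high Drd1, the spread between rats was widest for the beta subunits. The SD of log2(CPM + 1) was 0.48 for Gabrb1 and 0.36 for Gabrb2, above 94.3% and 86.4% of tested genes. It was 0.28 for Gabra4, 0.25 for Gabra2, 0.22 for Gabra3, 0.20 for Gabra5 and 0.19 for Gabrd, around the median of 0.24 over all tested genes. The highest library had 6.08 times the Gabrb1 of the lowest and 3.53 times the Gabrb2, but 2.24 times the Gabrd. Gabrd was thus among the most even subunits between rats with high Drd1, although it was the subunit that differed most between the profiles.

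The first comparison of labels set E21 against numeric libraries with high Drd1, 76 against 56. The labels state no purpose for the identifier forms, which may stand for any difference in handling. By limma's test on log2(CPM + 1), with Benjamini-Hochberg adjustment over all genes tested, Gabra3, Gabrb1 and Gabrb2 were lower and Gabrd was higher in E21. That is 3 of 7 subunits lower, where 25.9% of all tested genes were lower, and 1 of 7 higher, where 11.7% were higher. The median log2 change was -0.04 over the 7 subunits and -0.03 over all genes tested. The shares of higher and lower calls over all genes depend on the scaling: 31.2% of calls were higher here, 50.6% with median-of-ratios scaling and 55.1% after quantile normalization, while the 4 calls among the subunits kept their direction and stayed called under both.

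Gabra3 had a lowest, median and highest level of 50.2, 69.8 and 94.2 CPM in E21, against 63.8, 78.3 and 107 CPM in numeric. Its means were 69.4 ± 9.62 CPM in E21 (SD, n = 76) and 79.9 ± 10.2 CPM in numeric (SD, n = 56), and 22 of 76 E21 libraries lay under the lowest numeric one. The log2 change was -0.20 (SE 0.034, limma adjusted p = 9.73e-07). Gabrd moved the other way, with 54.5, 86.0 and 116 CPM in E21, against 51.8, 77 and 103 CPM in numeric. The ranges overlapped almost wholly, and the log2 change was 0.14 (SE 0.033, limma adjusted p = 0.000503). No call was made for the alpha subunits of medium spiny neurons. Gabra2 averaged 217 ± 40.4 CPM in E21 and 217 ± 27.7 CPM in numeric, and Gabra4 248 ± 51.4 and 242 ± 35.3 CPM (SD, n = 76 and 56). Their log2 changes were -0.01 (SE 0.043) and 0.02 (SE 0.050). Gabra5 changed by -0.04 (SE 0.034, limma adjusted p = 0.306).

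Many E21 libraries were low for the beta subunits. Gabrb1 had 5.53, 17.8 and 33.7 CPM in E21, against 13.4, 19.8 and 31.2 CPM in numeric, and 33 of 76 E21 libraries lay under the lowest numeric one. Its log2 SD was 0.58 in E21 and 0.26 in numeric, where the median over all tested genes was 0.26 in E21 and 0.19 in numeric. The log2 change of Gabrb1 was -0.30 (SE 0.082, limma adjusted p = 0.0021). After the data were seen, the widest gap in Gabrb1 among these E21 libraries, away from the extremes, was looked up. It ran from 16.7 to 18.9 CPM, with 38 libraries on each side, and 8 numeric libraries lay within it. The interval is empty of these E21 libraries by that choice, so this is a description and no contrast of the groups. Gabrb2 had 80.5, 162 and 243 CPM in E21, against 106, 175 and 284 CPM in numeric, with 13 of 76 E21 libraries under the lowest numeric one. Its log2 change was -0.23 (SE 0.061, limma adjusted p = 0.00203).

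Marker levels moved with these labels. The 8 markers of cortical glutamatergic neurons, among them Slc17a7, Tbr1 and Neurod6, were all detected and summed to 26.2, 154 and 1512 CPM (lowest, median, highest) in E21, against 42.8, 381 and 1374 CPM in numeric. With the score of this list as a covariate, Gabra3 fell by 0.12 (SE 0.033) and Gabrb1 by 0.39 (SE 0.087) on the log2 scale, both still called. Gabrd was then at 0.06 (SE 0.032, limma adjusted p = 0.125), no longer called, and Gabra2 at -0.11 and Gabra4 at -0.12 were called lower (limma adjusted p = 0.0387 and 0.0228). Ribosomal protein genes, 77 in number, held 1.28, 1.65 and 3.04% of counts in E21, against 1.32, 1.70 and 2.72% in numeric. With their score as a covariate, the same 4 subunits were called.

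**Figure D2:**
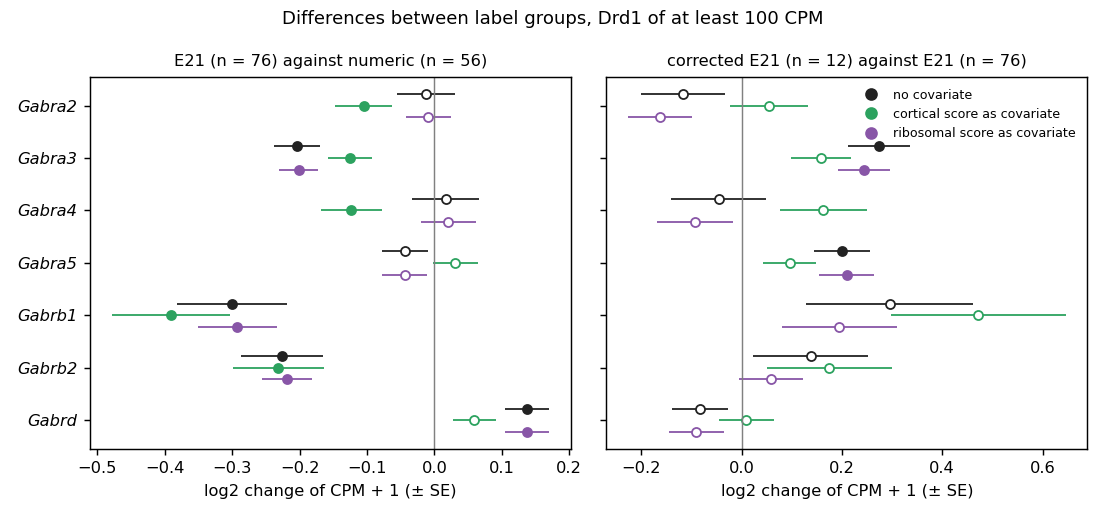
Log2 change of each subunit with its SE, in libraries with Drd1 of at least 100 CPM, for E21 against numeric on the left and corrected E21 against E21 on the right, without and with a covariate. Filled points have a limma adjusted p under 0.05. On the left Gabra3, Gabrb1 and Gabrb2 lie left of 0 in every fit, and on the right no point is filled in the fit with the cortical score.

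With all libraries, 77 E21 against 67 numeric, Gabra2, Gabra4 and Gabrd were called higher and Gabra3, Gabrb1 and Gabrb2 lower, where 17.4% and 30.3% of all tested genes were called in these directions. Gabrd changed by 0.66 (SE 0.168), Gabra4 by 0.37 (SE 0.116) and Gabra2 by 0.21 (SE 0.082) on the log2 scale, with limma adjusted p of 0.000631, 0.00523 and 0.0274. These are 3 of the 4 subunits that lie wholly lower with high Th, and 10 of the 11 libraries with high Th are numeric. Without the 12 libraries that go against their label, the change of Gabrd was 0.14 and those of Gabra2 and Gabra4 were not called, as given above. Of all calls 36.5% were higher, against 50.9% with median-of-ratios scaling and 53.5% after quantile normalization. Gabra5, at 0.16 (SE 0.076, limma adjusted p = 0.0734), was not called with all libraries, but was called higher under both other scalings and with the cortical covariate, with limma adjusted p from 0.000345 to 0.0326. Gabrb2 was not called with median-of-ratios scaling or the cortical covariate (limma adjusted p = 0.0908 and 0.0682), nor Gabra2 without the filter on low levels (limma adjusted p = 0.0512).

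The second comparison set 12 corrected E21 libraries against the same 76 E21 libraries, all with high Drd1, so the comparisons share the E21 libraries and are not independent. Gabra3 and Gabra5 were higher in corrected E21, which is 2 of 7 subunits where 6.32% of tested genes were called higher and 1.88% lower. Of all calls 77.1% were higher, against 56.9% with median-of-ratios scaling and 53.9% after quantile normalization. Gabra3 had 65.3, 82.5 and 107 CPM in corrected E21, against 50.2, 69.8 and 94.2 CPM in E21, a log2 change of 0.27 (SE 0.062, limma adjusted p = 0.00176). Gabra5 had 47.8, 64 and 75.4 CPM in corrected E21, against 43.6, 54.8 and 76.1 CPM in E21, a log2 change of 0.20 (SE 0.055, limma adjusted p = 0.0126). The ranges of both overlapped. The medians were higher in corrected E21, although its lowest libraries lay under the E21 medians. Gabrb1 changed by 0.30 (SE 0.166) and was not called, though no corrected library fell under 16.2 CPM. With all libraries, where 4.27% of genes were called higher and 0.856% lower (83.3% of calls higher, against 62.1% with median-of-ratios scaling and 59.7% after quantile normalization), Gabra3 was called at the same size and Gabra5 was not (0.22, SE 0.075, limma adjusted p = 0.0647).

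The cortical markers again moved with the label, at 49, 663 and 1055 CPM in corrected E21 against 26.2, 154 and 1512 CPM in E21. With their score as a covariate 0 subunits were called by limma, 2 having an unadjusted p under 0.05, and the changes were 0.16 (SE 0.060) for Gabra3 and 0.10 (SE 0.053) for Gabra5. Of all genes tested, 6 were then called in place of 1265. Under median-of-ratios scaling Gabra5 was not called (limma adjusted p = 0.0538). The 2 AA1 libraries had 97.9 and 113 CPM of Gabrd and 59.7 and 61.5 CPM of Gabra3, and the library corrected to another form had 8.75 CPM of Gabrb1; with so few libraries they entered no comparison.

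Other GABA genes were set beside the subunits in E21 against numeric with high Drd1. Of 12 other receptor subunits 7 were tested, and 4 were lower and 0 higher, with a median change of -0.25 on the log2 scale. Among those lower were the theta subunit Gabrq at -0.34 (SE 0.072) and the gamma subunits Gabrg1 at -0.25 (SE 0.082) and Gabrg3 at -0.34 (SE 0.125). Their limma adjusted p lay between 8.1e-05 and 0.0239. Gabrq averaged 0.86 CPM with high Drd1, under the filter of 1 CPM. It passed that filter only through the libraries with high Th, where its median was 4.55 CPM, so its change lies near the floor. Gabrq is nevertheless included in the counts of genes tested and lower here, and in the median change. Among 18 anchoring and traffic genes 4 were higher and 4 lower. The 4 with the smallest p were Iqsec3 at -0.44, Trak1, a motor adaptor, at -0.16, Plcl2, a receptor-binding protein, at -0.16, and Clptm1, which holds receptors in the endoplasmic reticulum, at 0.08. Gad2, one of the GABA-making enzymes, was at -0.29 (SE 0.109) and Slc32a1, the vesicular GABA transporter, at 0.14 (SE 0.038), both called, while Gad1 was at -0.01 and not called. Of 5 uptake and breakdown genes 2 were lower, Aldh5a1 at -0.10 and Slc6a11 at -0.31. Of 5 GABA-B receptor genes Gabbr2 was lower at -0.46 (SE 0.067) and Kctd8, an auxiliary subunit, higher at 0.14. Neither chloride transporter, Slc12a5 at -0.02 and Slc12a2 at -0.02, was called, nor was Dbi at -0.12. Over the 41 genes tested from these lists 6 were higher and 12 lower, where 11.7% of all tested genes were higher and 25.9% lower.

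These calls moved with the cortical covariate, under which 4 of the 41 genes were higher and 21 lower. Slc32a1 was then at 0.04 (SE 0.037, limma adjusted p = 0.345) and Kctd8 at 0.07 (SE 0.047, limma adjusted p = 0.201), neither called. The other genes named above as called stayed called in the same direction. Among them Gad2 was at -0.50 and Gabrg3 at -0.55, while Gabrq was at -0.17, Iqsec3 at -0.16 and Gabbr2 at -0.19.

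In the second comparison with high Drd1, 2 of 7 tested among the other subunits were called higher in corrected E21 and 0 lower. Among all tested genes 6.32% were called higher and 1.88% lower. The count of those higher includes Gabrq, at 0.49 (SE 0.119). That gene passed the filter only through the libraries with high Th and again lay near the floor. Iqsec3 at 0.55 and Gabbr2 at 0.69 were higher and Ubqln1 at -0.09 and Kctd12 at -0.29 lower. The other 4 lists held no call at an adjusted p of 0.05. With the cortical score as a covariate, limma called 0 of the 41 genes of these lists, 13 having an unadjusted p under 0.05.

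Between rats, Gabra2, Gabra4, Gabrb1 and Gabrb2 went up and down together, and Gabra3 went with Gabra5 and with the beta subunits. Over the 147 libraries with high Drd1, all 21 pairs were correlated on log2(CPM + 1), with 2-sided permutation p from 100000 resamples adjusted over the 21 pairs, and 15 passed an adjusted p of 0.05. The highest Pearson r was 0.81 between Gabra2 and Gabra4 (Spearman's rho 0.81, adjusted p = 2.1e-05 and 2.62e-05, each from the smallest permutation p possible here, 1e-05). Gabra2 and Gabra4 lie on the same chromosome, 14, in the cluster Gabrb1, Gabra4, Gabra2 of the GRCr8 annotation. Leaving out the 2 libraries farthest from the median of Gabra2 gave r = 0.80, and r was 0.89 within E21 (n = 76) and 0.58 within numeric (n = 56). Gabra2 with Gabrb2, which lies on chromosome 10, had r = 0.76 and rho = 0.77, with 0.84 within E21 and 0.73 within numeric, and r = 0.75 without the 2 libraries. Gabra4 with Gabrb2 had r = 0.56 and rho = 0.58, with 0.69 within E21 and 0.31 within numeric, and r = 0.57 without the 2 libraries. Over the 147 libraries each of these had the same adjusted p as the first pair. Within numeric, the r of Gabra4 with Gabrb2 did not pass (adjusted permutation p = 0.0516).

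Gabrb1 and Gabra4 are neighbours whose outermost annotated 5′ ends, the positions in the deposited table, lie 26.8 kb apart, with the genes pointing away from each other. They had r = 0.60 over the 147 libraries (rho 0.60, adjusted p = 2.1e-05), but r was 0.78 within E21 and 0.12 within numeric, so the relation rested on the E21 libraries. Gabrb1 with Gabra2 had r = 0.65, with 0.78 within E21 and 0.46 within numeric. Across chromosomes, Gabrb1 and Gabrb2 had r = 0.72 (rho 0.75, adjusted p = 2.1e-05), with 0.74 within E21, 0.56 within numeric and 0.72 without the 2 libraries.

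Gabra3 and Gabra5 went together with r = 0.50 (rho 0.49, adjusted p = 2.1e-05), which was 0.27 within E21, 0.67 within numeric and 0.28 given the cortical score. Gabra5 went against Gabra2 with r = -0.29 (adjusted p = 0.0007) and against Gabra4 with r = -0.23 (adjusted p = 0.00703), and within numeric these were -0.17 and -0.08. Given the cortical score neither passed, with partial r of -0.09 (adjusted permutation p = 0.323) and 0.04 (adjusted permutation p = 0.671). Gabra3 also went with Gabrb2, at r = 0.45, and with Gabrb1, at r = 0.38, both with an adjusted p of 2.1e-05. These were 0.54 and 0.44 within E21 but 0.14 and -0.08 within numeric, where neither passed. With Gabra2 and Gabra4, Gabra3 had r = 0.05 each, neither passing, but given the cortical score the partial r was 0.42 and 0.53, both passing with an adjusted p of 2.1e-05. Over the 147 libraries, the highest r of Gabrd was smaller than the highest r of any other subunit. It was with the assembly partner Gabra4, 0.37 (rho 0.27, adjusted p = 2.1e-05 and 0.0016), with 0.33 within E21, 0.63 within numeric and 0.34 without the 2 libraries. Given the cortical score the partial r of this pair was 0.13 and did not pass (adjusted permutation p = 0.145). With Gabra2, Gabrd had r = 0.05 (adjusted p = 0.602), and with Gabra3 r = -0.32, which was -0.17 within E21, -0.16 within numeric and 0.02 given the cortical score, none of these passing.

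In the 11 libraries with high Th, the same pairs took other values. These 21 pairs were computed after the data were seen, and 0 passed the adjusted threshold for r by permutation, 9 having an unadjusted p under 0.05. Gabra2 and Gabra4 had r = -0.66 and rho = -0.75 there (adjusted permutation p = 0.0862 and 0.051). Gabra4 and Gabrd had r = -0.56 and rho = -0.76, and Gabra2 and Gabrd r = 0.76 and rho = 0.73. Gabra4 with Gabrb2 had r = 0.72 and rho = 0.85 (adjusted permutation p = 0.0544 and 0.0405), the pair whose rho passed. Leaving out the 2 libraries farthest from the median gave r = -0.75 for Gabra2 with Gabra4 and 0.44 for Gabra2 with Gabrd. The difference from the 147 libraries was not tested.

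**Figure D3:**
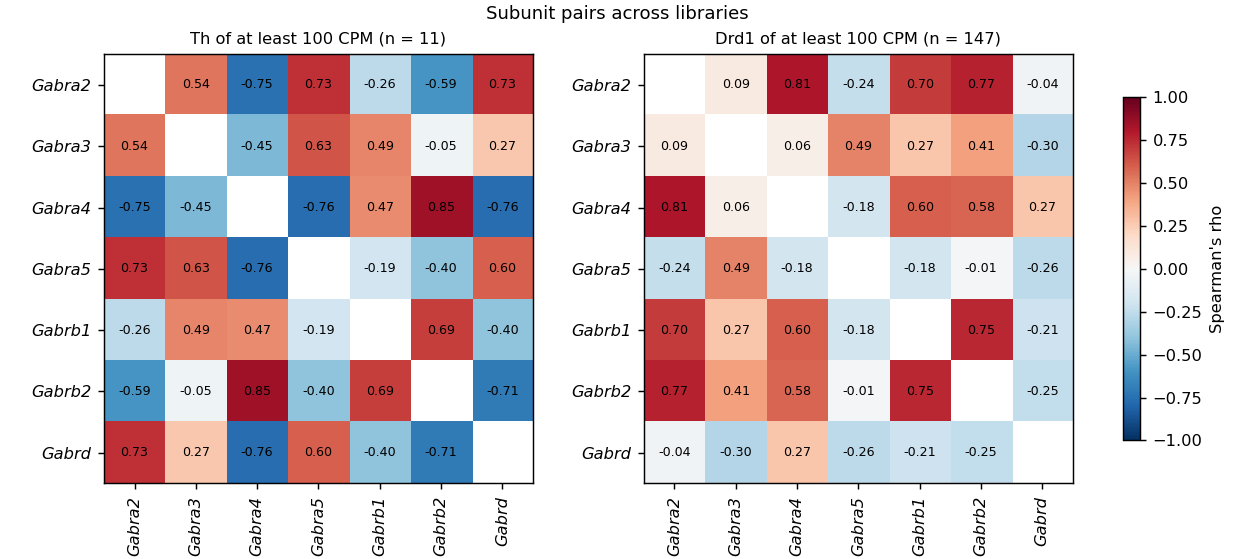
Spearman's rho of each pair of subunits on log2(CPM + 1), in the 11 libraries with Th of at least 100 CPM on the left and the 147 with Drd1 of at least 100 CPM on the right. Gabra2 and Gabra4 have rho of -0.75 on the left and 0.81 on the right, and Gabra4 and Gabrb2 are positive in both, at 0.85 and 0.58.

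The promoter windows of the beta subunits are shown because both hold the same block, which no other of the 6 windows has. The letters searched were GCGCATGC, the core of the recognition sequence of NRF1, a factor that drives many genes of mitochondria and neurons, on either strand. The Gabrb1 window is chr14:36902894-36903143 on the minus strand, up to a RefSeq start that lies 15027 bases inside the outermost 5′ end given in the deposited table. The Gabrb2 window is chr10:27439543-27439792 on the plus strand, 1666 bases inside it. Each is written 5′ to 3′, as the 250 bases before the RefSeq start, with the matches in capitals.
Gabrb1: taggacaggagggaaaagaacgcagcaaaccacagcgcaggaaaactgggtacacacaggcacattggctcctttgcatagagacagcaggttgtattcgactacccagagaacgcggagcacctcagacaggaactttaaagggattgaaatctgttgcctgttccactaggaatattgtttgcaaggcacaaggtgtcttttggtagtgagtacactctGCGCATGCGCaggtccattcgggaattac
Gabrb2: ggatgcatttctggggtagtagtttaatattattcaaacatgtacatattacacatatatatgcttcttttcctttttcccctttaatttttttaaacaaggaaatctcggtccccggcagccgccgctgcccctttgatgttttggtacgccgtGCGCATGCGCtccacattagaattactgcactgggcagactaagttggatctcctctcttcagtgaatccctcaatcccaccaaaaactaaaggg
Each capital block is a palindrome in which the match on one strand overlaps that on the other. It begins 29 bases before the start of Gabrb1 and 95 bases before that of Gabrb2. The same letters were found in 2.20% of all 33469 windows over these bases. Neither window holds a GC box, and they were 49.2% and 43.2% G and C with 8 CpG each.

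Subunits divided by which cell markers they went with. Each was correlated with the scores of 5 marker lists and with library total over the 147 libraries, and 28 of these 42 relations passed a permutation p adjusted over the 42. A score is the mean of standardised log2 values of a list's genes. Gabra4 followed the 12 medium spiny neuron markers most closely, with r = 0.80 (rho 0.78), 0.84 within E21 and 0.75 within numeric. Gabra2 had r = 0.68 with this list (rho 0.67), with 0.80 within E21 and 0.42 within numeric, and Gabrd 0.46 (rho 0.38), with 0.39 and 0.52. These 3 went against the cortical list, with r of -0.52 for Gabra4, -0.42 for Gabra2 and -0.54 for Gabrd. These were -0.54, -0.48 and -0.44 within E21 and -0.61, -0.30 and -0.53 within numeric, in the same order of genes, and the one of Gabra2 within numeric did not pass (adjusted permutation p = 0.058). Gabra3 and Gabra5 did the reverse. With the cortical list Gabra3 had r = 0.61 (rho 0.59; 0.43 within E21 and 0.54 within numeric) and Gabra5 r = 0.51 (rho 0.52; 0.43 and 0.48). With the medium spiny neuron list Gabra5 had r = -0.51 in all, -0.52 within E21 and -0.44 within numeric, while Gabra3 had -0.31 in all, 0.01 within E21 and -0.59 within numeric.

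The beta subunits followed neither neuron list closely. Gabrb1 had r = 0.40 and Gabrb2 r = 0.35 with medium spiny neuron markers, 0.62 and 0.63 within E21 but 0.15 and 0.08 within numeric. With cortical markers they had r = -0.04 and 0.10, neither passing. Gabrb2 went against the 7 oligodendrocyte markers, with r = -0.53 (rho -0.49; -0.53 within E21 and -0.57 within numeric), and so did Gabra2 with -0.44 (-0.38 and -0.60), Gabra4 with -0.32 (-0.26 and -0.47) and Gabrb1 with -0.31 (-0.32 and -0.28, the last not passing). Over the 147 libraries, each marker list r named here that was at least 0.35 in size, above or below 0, had an adjusted permutation p of 5.6e-05 or lower. Without the 2 libraries farthest from the median of the score, r was 0.78 for Gabra4 and 0.69 for Gabra2 with medium spiny neuron markers, 0.59 for Gabra3 and 0.49 for Gabra5 with cortical markers, and -0.48 for Gabrb2 with oligodendrocyte markers. With library total the r farthest from 0 was 0.30, for Gabrb1.

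**Figure D4:**
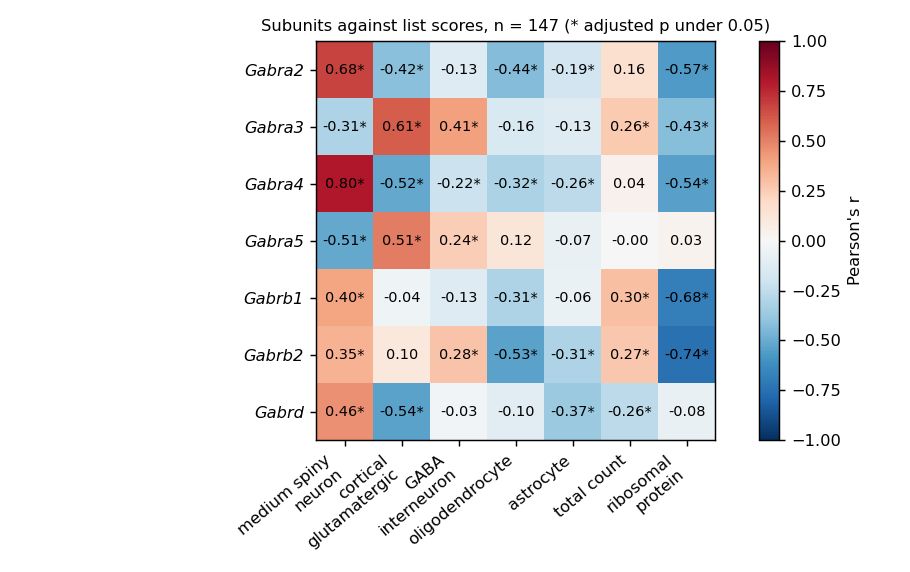
Pearson's r of each subunit with the score of 5 marker lists, library total and the ribosomal protein score, over 147 libraries with Drd1 of at least 100 CPM. A star marks an adjusted permutation p under 0.05. Gabra4 has 0.80 with medium spiny neuron markers, Gabra3 0.61 with cortical markers and Gabrb2 -0.74 with ribosomal protein genes.

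Ribosomal protein genes were looked at after the data were seen. Their score went against Gabrb2 with r = -0.74 (rho -0.70), against Gabrb1 with -0.68 (rho -0.71), against Gabra2 with -0.57, Gabra4 with -0.54 and Gabra3 with -0.43, each with a permutation p adjusted over 7 subunits of 1.4e-05. Gabra5, with 0.03, and Gabrd, with -0.08, did not pass. Within E21 r was -0.85 for Gabrb2 and -0.73 for Gabrb1, and within numeric -0.61 for both. With the score held constant, 18 of the 21 pairs passed. The partial r was 0.73 for Gabra2 with Gabra4, 0.60 for Gabra2 with Gabrb2 and 0.43 for Gabrb1 with Gabrb2, all passing. Gabra4 with Gabrb2, at 0.28, and Gabra3 with Gabrb2, at 0.22, were lower than without it but passed. Gabra3 with Gabrb1 was at 0.13 and did not pass (adjusted permutation p = 0.138). Whether RNA quality takes part in these relations was not tested, as the labels carry no measure of it.

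**Figure D5:**
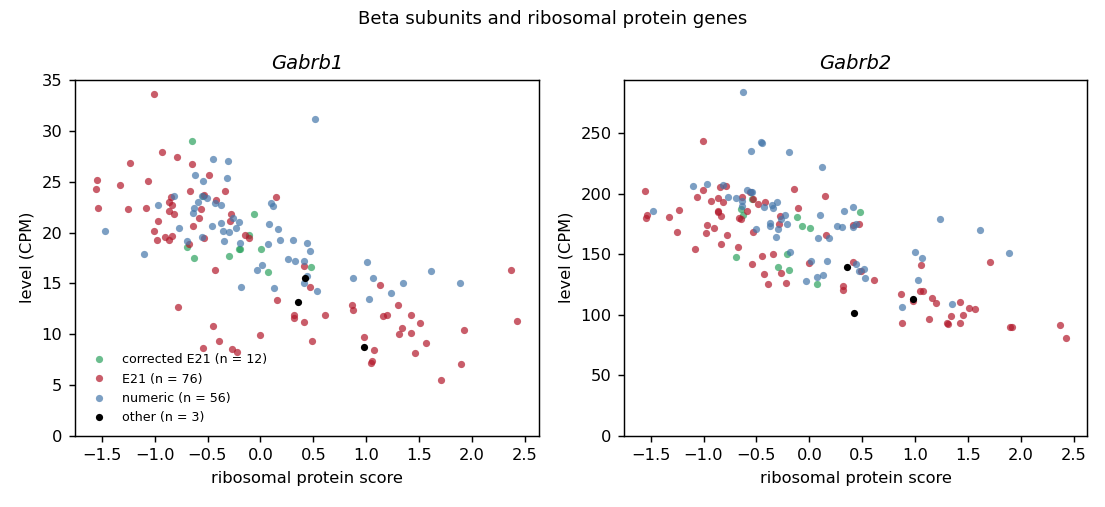
Level of Gabrb1 on the left and Gabrb2 on the right, in CPM, against the ribosomal protein score, which has no unit, for 147 libraries with Drd1 of at least 100 CPM coloured by label group. Both fall as the score rises, with r of -0.68 and -0.74, and the lowest Gabrb1 levels belong to E21 libraries, down to 5.53 CPM.

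The genes most like each subunit over the 147 libraries, among 10222 others averaging 10 CPM or more, were ranked by Spearman's rho. Gabra2 was most like Fgf14 (0.94), Galnt13 (0.93) and Nyap2 (0.93), and Gabra4 most like Prkar2b (0.93), Mctp1 (0.92) and Avl9 (0.92). Gabrb1 had Lrrc7 (0.93), Ash1l (0.91) and Zfp462 (0.91), and Gabrb2 had Camta1 (0.90), Bicd1 (0.90) and Cdc27 (0.89). For Gabra3 they were Fbxo47, Fstl5 and Atp2b4 (0.82 each), and for Gabrd Pde1b (0.77), Actr3b (0.77) and Fam110b (0.76). Gabra5 was the least closely matched, with Stambpl1 (0.66), Cnih3 (0.64) and Mal2 (0.63). The median rho over all genes compared lay between 0.01 and 0.06 for every subunit. These values are a description over libraries that differ in depth and in marker levels.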

How the data were processed

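Polyadenylated RNA of the rat nucleus accumbens core was analysed. The submitters' processing notes name kallisto 0.48 as the quantifier; no source used here gives the annotation, build or strand, so reads of overlapping or antisense genes could not be told apart. Each deposited value is on a log2 scale, taken from the values themselves to be log2(expected count + 1) without scaling for depth. Expected counts were recovered, brought to CPM and transformed as log2(CPM + 1), a scale on which changes of low genes are understated. The depth was 14.6 to 61.2 expected counts per CPM. Tests used the genes averaging 1 CPM or more. No column was left without a sample, and the highest correlation between libraries was 0.994, so none were merged.

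Between groups, limma 3.58.1 (R 4.3.3) was run 2-sided with an intensity trend, and p was adjusted by Benjamini-Hochberg across every tested gene, with calls at 0.05. Correlations used permutations in Python 3.11.15 with numpy 2.4.6, and pandas 2.3.3, scipy 1.17.1 and matplotlib 3.10.9 served the rest. The scripts were tested on simulated data. Of the table's symbols, 38278 occur in the RefSeq gene table of GRCr8, and for all of these the file's position is an end of the RefSeq gene, so positions and promoter sequences are credited to RefSeq, GRCr8. The members, lists and tests were chosen with earlier results of these data known. By rule the text names all 7 subunits, up to 4 genes of each list with the smallest p in E21 against numeric with high Drd1, up to 3 markers of a list described and the 3 genes most like each subunit; the genes called in the second comparison, and others where stated, were chosen after their values were seen. Alternatives were other scalings, a pseudocount of 0.5, no filter on low levels, covariates, and E21 or numeric libraries alone. Single values of some genes of these lists are not reported here.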

Additional observations from a re-analysis of the deposited data

How the results depend on the processing

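The limits are those of whole-tissue RNA with few labels: identifier forms cannot be told apart from unnamed batches, and at 14.6 to 61.2 expected counts per CPM the level of Gabrd with high Th, 1.44 to 8.30 CPM, rests on the fewest reads. Of 168 alternative values of the subunits' changes between labels, 145 kept their direction and side of the threshold, 8 were no longer called, 5 became called and 10 changed sign. No paired analysis was possible because the labels give no number or pairing that the groups share.

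With E21 against numeric and high Drd1, Gabra2 was at 0.019 with median-of-ratios scaling and 0.00021 after quantile normalization, and with the cortical score as a covariate Gabra4 was at -0.12 and Gabra5 at 0.031. With corrected E21 against E21 and the cortical covariate, Gabra2, Gabra4 and Gabrd were at 0.078, 0.19 and 0.060 with all libraries and 0.055, 0.16 and 0.0094 with high Drd1. That covariate left 0 subunits called and 5 genes in all with all libraries, against 791 without it, and 0 subunits and 6 genes in all with high Drd1. With all libraries 2 subunits were called with the ribosomal covariate, and with high Drd1 1 was called with median-of-ratios scaling.

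Among the 21 pairs, 7 passed within numeric alone and 0 with high Th, where 11 libraries limit any call. The sign changed with median-of-ratios scaling for Gabra2 with Gabra3 (-0.015) and Gabra3 with Gabra4 (-0.050). It changed within numeric for Gabra2 with Gabra3 (-0.17) and Gabrd (-0.052), Gabra3 with Gabra4 (-0.17) and Gabrb1 (-0.085), and Gabra5 with Gabrb2 (0.064), and within E21 for Gabrb2 with Gabrd (0.046). Given the cortical score it changed for Gabra2 with Gabrd (-0.23), Gabra3 with Gabrd (0.015), Gabra4 with Gabra5 (0.043) and Gabra5 with Gabrd (0.013), and given the ribosomal score for Gabra2 with Gabra3 (-0.27) and Gabra3 with Gabra4 (-0.24). With the marker scores and library total, 17 relations passed within numeric. The sign changed there for the astrocyte score with Gabra2 (0.072), Gabrb1 (0.16) and Gabrb2 (0.036), the oligodendrocyte score with Gabra3 (0.10), the interneuron score with Gabra4 (0.068) and Gabrd (0.12), and library total with Gabra4 (-0.28), Gabra5 (0.029), Gabrb1 (-0.071) and Gabrb2 (-0.015). It changed within E21 for Gabra3 with medium spiny neuron markers (0.011), Gabra5 with astrocyte markers (0.040), Gabrb2 with cortical markers (-0.073), and Gabrd with interneuron markers (0.056) and library total (0.11), and with median-of-ratios scaling for Gabrd with interneuron markers (0.053). The cause was not tested. The ribosomal covariate, the ribosomal partial correlations, the pairs with high Th and the gap in Gabrb1 within E21 were chosen after seeing the data.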
